A study of Equus caballus with 11 samples.

Results

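A set of 331 CpG sites was more methylated in horse heart than in both lung and liver. They were selected on the methylation levels themselves, out of 68147 CpGs on chromosomes 1 to 31 that had at least 10 reads in each of 11 libraries after both strands of a CpG were combined. A CpG was kept when the mean of the heart libraries lay 20 or more percentage points above the lung mean and above the liver mean, the lung and liver means differed by under 15 points, and the lowest heart library exceeded the highest lung or liver library. The difference between heart and the other tissues is therefore given by the choice, and it is described below without a test. Here, the margin of a CpG is its heart mean minus the higher of its lung and liver means, in percentage points.

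Reduced representation bisulfite sequencing (RRBS) was used, a method limited to short fragments cut at CCGG sites. Bisulfite converts unmethylated cytosines, which are then read as T, while methylated ones are still read as C. The methylation level of a CpG is the percent of its reads with C. Tissue came from the left ventricle of the heart, the caudal lobe of the right lung and the right lobe of the liver of healthy Polish cold-blooded stallions aged 1 to 2 years, sampled at slaughter. There were 4 heart libraries and 4 lung libraries (horses 1, 2, 3 and 4) and 3 liver libraries (horses 1, 2 and 4), with 3255257 to 25109840 reads summed over CpG positions per library, and liver of horse 2 was the shallowest. Each library holds all cell types of a piece of tissue, so a different mix of cells and a change within a cell type cannot be told apart in these levels. The tissue labels could not be checked against marker genes, since gene positions in EquCab3.0 were not analysed here.

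In mammals, most CpGs outside dense CpG islands are methylated, and tissues differ mainly at regulatory DNA, where a high level usually goes with an inactive promoter or enhancer and a low level with an active one. In gene bodies, methylation often accompanies transcription instead. The ventricle is built of cardiomyocytes together with fibroblasts, endothelial cells and other cells, and during maturation cardiomyocytes are known to lose methylation across genes of contraction and to gain it at some developmental genes.

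Averaged over the 331 CpGs, the heart libraries were at 70.2%, 70.4%, 71.4% and 70.8% in horses 1, 2, 3 and 4. The lung libraries were at 41.3%, 39.0%, 40.2% and 39.7%, and the liver libraries at 41.1%, 35.4% and 36.7% in horses 1, 2 and 4. Heart thus averaged 70.7% ± 0.513 (SD over 4 libraries), while lung reached 40.04% ± 0.965 (4 libraries) and liver 37.7% ± 2.99 (3 libraries). Over all 68147 CpGs the same libraries lay close together, between 67.7% and 69.7%. Horses differed little in heart at these CpGs as a group, and lung and liver were near each other, with lung above liver at 206 of the 331 and a median difference of lung minus liver of 2.70 points.

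**Figure D1:**
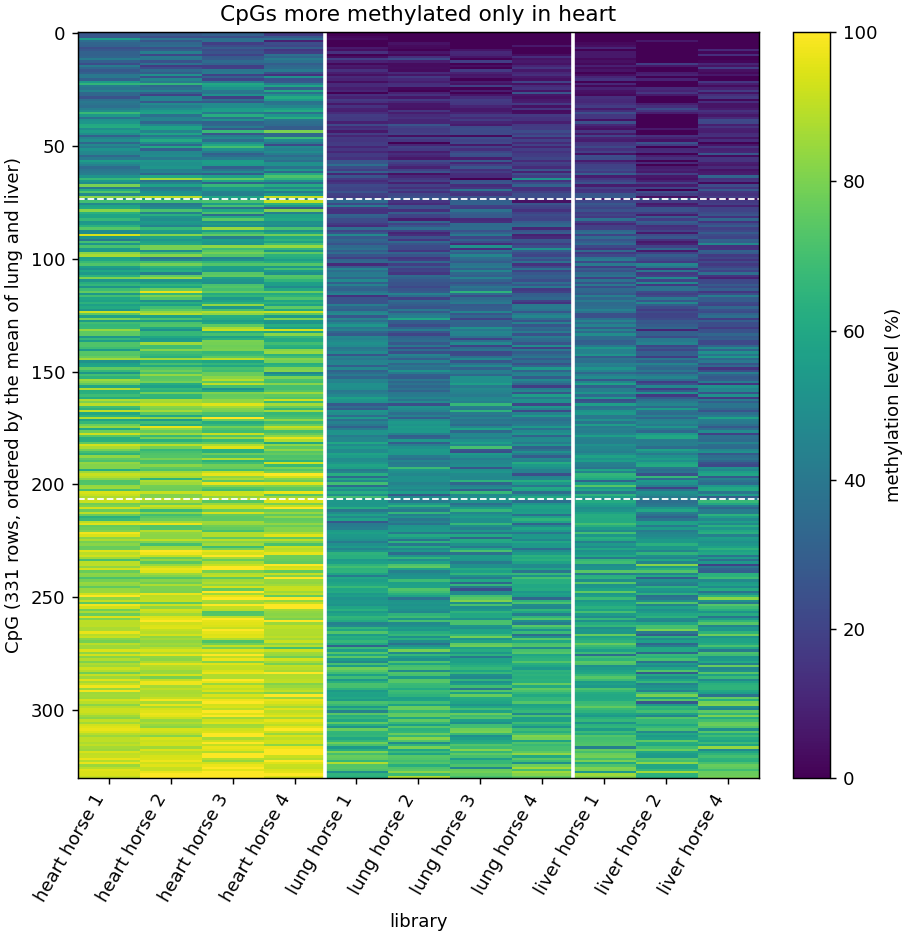
Methylation level (colour, percent) of the 331 CpGs (rows, ordered by the mean of lung and liver) in the 11 libraries (columns), with white lines between tissues and dashed lines where the mean of lung and liver passes 20% and 50%. Every heart column is brighter than the lung and liver columns in the same row, as the choice required, and heart averaged 70.7% against 40.04% in lung and 37.7% in liver.

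The margin was mostly moderate. Its median was 26.8 points, with quartiles of 23.3 and 32.2 points and a range of 20.04 to 57.8 points. The median standard error of a margin was 5.70 points. It combines the SDs over libraries of heart and of the higher other tissue, without pairing by horse. The condition on single libraries also limits these SDs. A margin of 30 points or more was found at 113 CpGs, of 40 or more at 28 and of 50 or more at 7. The gap between the lowest heart library and the highest lung or liver library had a median of 10.1 points and was below 1 point at 8 CpGs. In the whole table, all heart libraries stood above all lung and liver libraries at 1424 CpGs, 2.09% of those with enough reads. Depth limits each single value. A library had a median of 14 to 49 reads at these CpGs. The median half-width of the 95% Wilson interval of a library at a CpG was 14.4 points. At 10 of the selected CpGs the intervals of the lowest heart and the highest other library did not overlap. The share of all CpGs with intervals apart in this way was not computed, so the 10 only describe the list. Such intervals cover counting error only, and they take each read as a separate molecule, which PCR copies would not be.

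Few of these CpGs were switched between empty and full methylation. At 74 CpGs lung and liver were low, with a mean at or below 20%, and heart was partly methylated, with medians of 41.7% in heart, 12.6% in lung and 8.76% in liver. At 133 CpGs lung and liver lay above 20% and up to 50%, with medians of 70.8%, 37.5% and 34.0%. At the remaining 124 CpGs, with lung and liver above 50%, heart was nearly full and the others were partial, with medians of 90.1%, 60.2% and 58.3%. Heart reached 80% or more at 137 CpGs and stayed below 50% at 60. The median margins were 26.7, 29.1 and 24.8 points in the low, middle and high group, and the largest were 57.8, 55.1 and 39.3 points. The scale ends at 100%, so a margin cannot reach 50 points where lung and liver average above 50%.

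**Figure D2:**
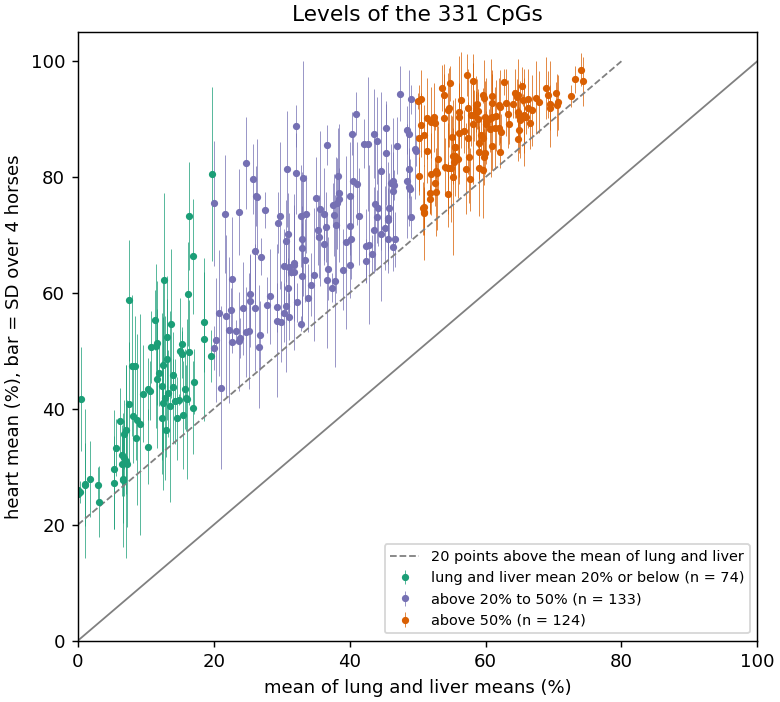
Heart mean (vertical axis, percent, bars are the SD over 4 horses) against the mean of the lung and liver means (horizontal axis, percent) for the 331 CpGs, coloured by level group; the solid line marks equal levels and the dashed line 20 points more. The low group (74 CpGs) has heart medians near 41.7% and the high group (124 CpGs) near 90.1%.

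The mirrored choice, with heart 20 or more points below both tissues, held 1118 CpGs, and the same choice in favour of liver and of lung held 779 and 242. The room on the scale differs with the level in lung and liver, and the counts have to be read with it. The mean of lung and liver was above 20% and up to 50% at 5664 CpGs. Of these, 133 were higher in heart (23.5 per 1000 CpGs) and 63 lower (11.1 per 1000). A rise of 20 points above both tissues had room at 5660 of them, and a fall below both at 4501. Counted over those with room, the higher ones came to 23.5 per 1000 and the lower ones to 13.997 per 1000. Among the 53736 CpGs with a mean above 50%, 124 were higher (2.31 per 1000) and 1055 lower (19.6 per 1000). Only 12347 of the 53736 had room for a rise of 20 points above both tissues, and counted over these the higher ones came to 10.04 per 1000. Among the 8747 at or below 20%, 74 were higher (8.46 per 1000), and a fall of 20 points below both tissues is not possible there. These counts come from the same libraries, and no test was made of them.

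The 331 CpGs were scattered over the genome in 263 separate places, if CpGs no more than 200 bp apart are joined. Of these places, 214 held a single CpG, 36 held a pair and 13 held runs of 3 to 5. The 49 places with 2 or more had a median length of 28 bp, and 47 of them spanned 75 bp or less, the length of a read, so neighbouring CpGs there were often read on the same molecules. Within such a place the heart means differed by a median of 5.79 points. Separate places rarely lay near each other. A distance of 20 kb joined only a pair of them, on chromosome 8 at 20650771 and 20651128, 2 CpGs whose heart average was 50.8% ± 3.99, with lung at 8.76% ± 1.86 and liver at 13.6% ± 3.71. This pair was singled out after its values were seen. All coordinates are those of EquCab3.0, and a run is given from the cytosine of its first CpG to the guanine of its last.

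The run with the most CpGs lay on chromosome 16 from 38302364 to 38302409. Its 5 selected CpGs averaged 48.4%, 51.3%, 61.8% and 62.4% in heart of horses 1, 2, 3 and 4, and 31.1%, 14.7%, 32.6% and 29.6% in lung. Liver was at 30.7%, 10% and 27.4% in horses 1, 2 and 4. It was the most CpG-rich of the named runs, with a median of 17 other listed CpGs within 100 bp, and heart was partly methylated throughout. Between its first and last selected CpG, 10 CpGs had enough reads in every library, so only 5 of these 10 were selected. The 7 unselected CpGs with enough reads inside the run or within 1 kb of it were at 41.7% in heart, with lung at 27.3% and liver at 19.7%.

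A larger contrast was seen on chromosome 25 from 35774685 to 35774752. The 4 CpGs there were at 72.3%, 72.0%, 68.2% and 72.8% in heart, at 20.7%, 19.6%, 34.8% and 15.7% in lung, and at 20.6%, 22.5% and 16.5% in liver. Heart varied by an SD of 2.12 points over the horses, and the margin was 48.6 points. A further CpG beside this run was at 92.6% in heart, 68.1% in lung and 34.96% in liver, so that lung and liver parted there. On chromosome 4 from 60195368 to 60195435, 3 CpGs had the widest margin among the named runs, 52.6 points. Heart was at 83.8%, 77.3%, 74.7% and 71.0%, lung at 34.3%, 18.5%, 30.0% and 13.6%, and liver at 23.1%, 15.4% and 18.1%.

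Heart was close to full methylation in a run of 4 CpGs on chromosome 8 (40642505 to 40642567), at 95.8%, 95.4%, 97.1% and 91.7%. Lung was at 54.9%, 58.1%, 70.9% and 50.1%, and liver at 53.8%, 43.2% and 65.4%. On chromosome 3 from 30332794 to 30332833, 4 CpGs averaged 81.0% ± 4.82 in heart, 46.7% ± 7.64 in lung and 41.4% ± 14.1 in liver (SD, n = 4, 4 and 3). The liver libraries spread from 26.2% to 54.1% there, and none reached the lowest heart library, 75%. The run on chromosome 17 from 9782060 to 9782090 was low in liver. Its 4 CpGs were at 53.8%, 56.7%, 37.7% and 32.2% in heart, at 17.7%, 19.9%, 24.0% and 16.2% in lung and at 6.34%, 1.79% and 12.97% in liver. The heart libraries of horses 1 and 2 were above those of horses 3 and 4. Summed over the CpGs of a run, a library held 39 to 347 counts in these 6 runs, where reads spanning more than 1 CpG enter the sum more than once.

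**Figure D3:**
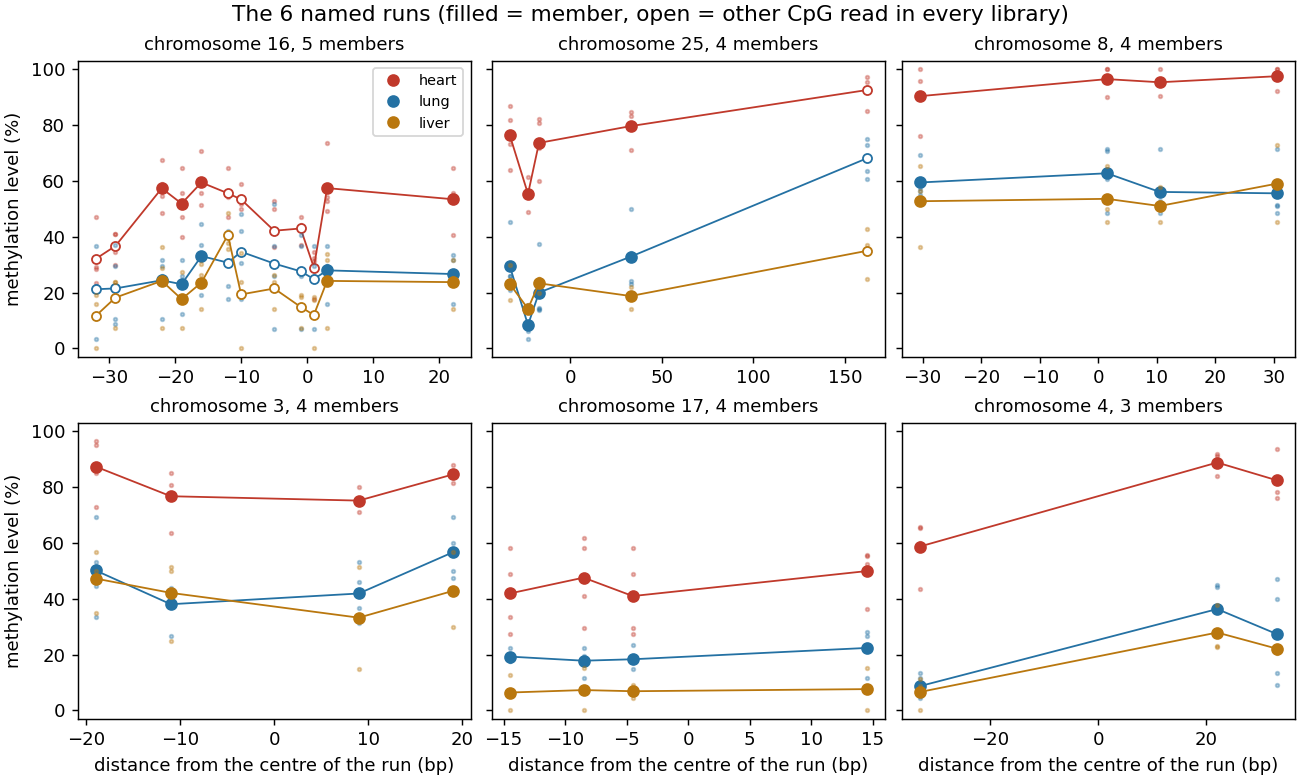
Methylation level (vertical axis, percent) against distance from the centre of the run (horizontal axis, bp) for the 6 named runs and other CpGs within 150 bp that had enough reads; large points and lines are tissue means, small points single libraries, and filled points are the selected CpGs. Heart (red) lies above lung (blue) and liver (ochre) at each selected CpG, and the margin averaged over a run went from 25.7 points on chromosome 17 to 52.6 points on chromosome 4.

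The CpG with the largest margin of all, 57.8 ± 7.70 points (SE), was a single CpG on chromosome 14 at 78303564, with no other listed CpG within 100 bp. Heart was at 82.5%, 89.8%, 58.8% and 91.2% in horses 1, 2, 3 and 4, lung at 17.5%, 24.5%, 25% and 24%, and liver at 28.4%, 4.35% and 17.6% in horses 1, 2 and 4. Heart of horse 3 was the lowest of its tissue, with 20 of 34 reads methylated (95% Wilson interval 42.2% to 73.6%), and still stood above liver of horse 1, the highest of the others, with 19 of 67 reads (19.0% to 40.1%). Others in the group with low lung and liver lay on chromosome 25 at 39487470, where heart was at 66.3% ± 9.87, lung at 21.3% ± 8.14 and liver at 12.8% ± 8.94, and on chromosome 5 at 6931418, with 62.2% ± 15.02, 17.4% ± 7.81 and 8.04% ± 7.90. On chromosome 2 at 118034016 lung was uneven. Its libraries were at 16.9%, 16.1%, 0% and 51.2%, where 0 of 20 reads allows a level of up to 15%, while heart was at 67.1%, 85.7%, 75% and 65.2%.

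In the middle group, the CpG on chromosome 31 at 15987427 was at 69.8%, 69.0%, 71.4% and 91.7% in heart, at 35.1%, 15.7%, 31.03% and 4.35% in lung and at 21.2%, 17.6% and 16.7% in liver. Heart and lung of horse 4 lay at opposite ends of their tissues there. The replicates were tighter on chromosome 10 at 83846520, where heart averaged 85.5% ± 3.41, lung 36.4% ± 8.995 and liver 37.0% ± 2.59. On chromosome 1 at 11874742 the levels were 76.7% ± 5.20, 30.7% ± 5.01 and 21.7% ± 6.14. On chromosome 11 at 24181976 heart was near full, 94.4% ± 4.75, and both other tissues varied widely between horses, with 45.1% ± 15.7 in lung and 49.8% ± 21.8 in liver.

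In the high group, heart lay close to the upper end of the scale. On chromosome 22 at 16711536 heart was at 92.1%, 92.3%, 92.9% and 95.1%, lung at 53.6%, 50%, 52.8% and 60%, and liver at 47.3%, 46.4% and 44.4%. The intervals of the lowest heart library (93 of 101 reads, 85.1% to 95.9%) and the highest other library (30 of 50 reads, 46.2% to 72.4%) were apart. On chromosome 2 at 5962860 heart averaged 93.5% ± 4.91, lung 56.1% ± 5.51 and liver 44.97% ± 10.2. On chromosome 26 at 14606620 the values were 96.2% ± 3.05, 60.2% ± 3.36 and 49.4% ± 15.2, and on chromosome 15 at 59048475 they were 91.2% ± 4.56, 55.6% ± 6.65 and 56.4% ± 6.27. Over all 331 CpGs the median SD between heart libraries was 8.47 points in the low, 7.08 in the middle and 4.74 in the high group. Counting error at these depths and levels alone gives medians of 8.49, 7.83 and 5.31 points, which fall in the same order. The observed medians were no larger than these. The choice asked every heart library to exceed all others, which limits the spread, so these SDs do not measure how alike the horses are.

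The border of the choice ran through similar CpGs. Those just inside it were on chromosome 11, at 51151219 with a margin of 20.04 points and at 30236860 with 20.11 points. Those just outside it were on chromosome 9 at 76273632, with 19.98 points, and on chromosome 1 at 94548533, with 19.95 points. In all, 702 CpGs had a margin of 20 points or more, 460 of them also had lung and liver means within 15 points of each other, and 331 met the condition on single libraries as well. With the other conditions held, 516 CpGs had a margin of at least 15 points and 757 of at least 10.

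CpGs beside the selected ones shared much of the difference. The 297 other CpGs of the table that lay within 75 bp had a heart level above the mean of lung and liver by a median of 17.7 points, and heart was the highest tissue at 93.6% of them, against 29.7% of all CpGs that were not selected. Of the 297, 240 missed the margin of 20 points, 130 of these by less than 10 points, 32 had lung and liver too far apart and 25 had overlapping libraries. CpGs within a read length share molecules with the selected ones. A second group was never open to selection, because some library had fewer than 10 reads, while at least 3 heart, 3 lung and 2 liver libraries had enough. Of 138562 such CpGs in the genome, 23 lay 76 to 200 bp from a selected CpG and 60 lay 201 to 500 bp away. Their heart level exceeded the mean of lung and liver by medians of 16.1 and 16.7 points, with quartiles of 6.98 to 23.3 and 1.94 to 28.0 points, against -0.155 points over all 138562. From 501 to 1000 bp the median was -1 point over 43 CpGs, with wide quartiles of -6.17 to 22.8 points, and from 1001 to 5000 bp it was 1.47 points (-2.29 to 8.27) over 312. In the table itself, the 26 CpGs at 201 to 500 bp had a median of 0.978 points (-2.29 to 15.8) and the 27 at 501 to 1000 bp had 4.96 points (-0.103 to 10.9), so the decline with distance was uneven. All of these values come from the libraries and tissues used for the choice and were not tested.

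**Figure D4:**
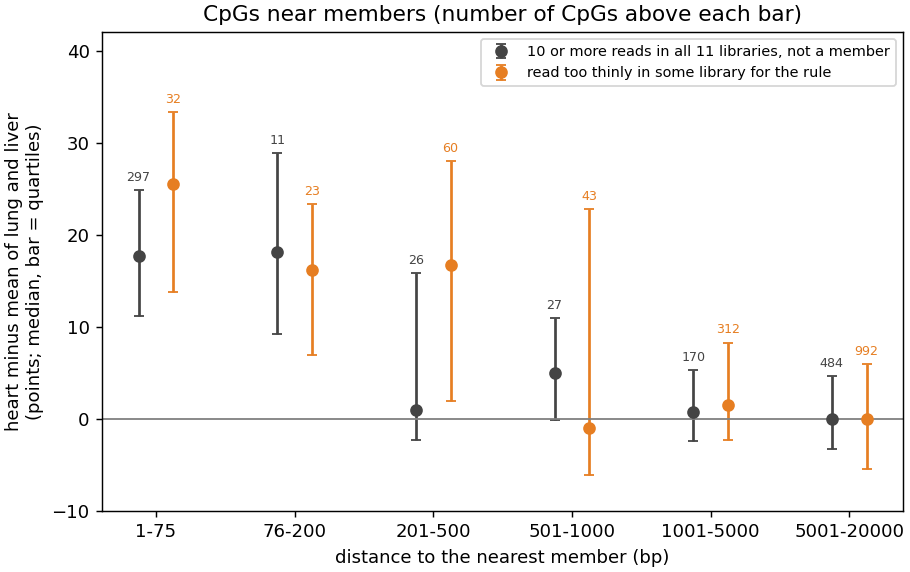
Heart level minus the mean of the lung and liver levels (vertical axis, percentage points, median with quartiles) for CpGs that were not selected, by distance to the nearest selected CpG (horizontal axis, bp), with the number of CpGs above each bar. Medians were 17.7 points (table of the choice) and 25.6 points (CpGs read too thinly in some library) within 75 bp, and -0.0315 and 0.0125 points at 5001 to 20000 bp.

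A selected CpG had a median of 2 other listed CpGs within 100 bp, against 3 over all 68147 and 2 for the mirrored choice. CpGs with 0 or 1 listed neighbour gave 5.79 selected per 1000, those with 2 to 4 gave 5.61, those with 5 to 8 gave 4.05 and those with 9 to 14 gave 1.98. With 15 or more neighbours the rate was 2.17 per 1000, from 6 CpGs. The mirrored choice also became rarer, from 19.7 per 1000 with 0 or 1 neighbour to 3.61 with 15 or more. The low group was denser, with a median of 4 neighbours, and 60.8% of its CpGs stood in pairs or runs, against 30.1% of the middle and 25.8% of the high group. Lower levels at denser CpGs were not particular to the list. Over all CpGs with enough reads, lung and liver averaged 75.8% with 0 or 1 neighbour and 50.2% with 15 or more.

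Position gave few contrasts. Within 5 Mb of the first listed CpG of a chromosome lay 9.97% of the selected CpGs and 12.7% of all, and within 5 Mb of the last listed CpG 8.16% and 11.7%. Every chromosome held at least 1. Chromosome 1 held the most, 30 in 26 places. Chromosomes 18 and 4 had the highest rates, 8.57 and 8.55 per 1000 CpGs with enough reads. These came from 15 CpGs in only 9 places on chromosome 18 and 20 in 14 on chromosome 4. Only 4 of the 331 were read on both strands in every library, with at least 5 reads on each, against 5.81% of all CpGs. At these 4, on chromosomes 2, 8, 13 and 22, heart was the highest tissue by 20 points or more on each strand separately. The reads of each strand are part of the combined level used for the choice, so this only describes the 4.

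Depth at the selected CpGs was not a part of the choice beyond the minimum, so it was compared between tissues over libraries. Their median depth was 0.978 ± 0.0314 times that of all CpGs in heart (SD, n = 4), 0.952 ± 0.00818 times in lung (n = 4) and 0.954 ± 0.0181 times in liver (n = 3). Heart exceeded lung by 0.0263 (exact 2-sided permutation p = 0.171, 0.286 after Benjamini-Hochberg adjustment over 2 tests) and liver by 0.0246 (exact permutation p = 0.286, adjusted 0.286), where 0.0286 and 0.0571 are the smallest p that these numbers of libraries allow. With mean in place of median depth, heart was below liver. None of the 331 had a median depth above 200 reads, a depth exceeded by 705 of all CpGs.

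Tissues of 1 horse were scarcely alike in how they deviated at these CpGs. The deviations of a library from its tissue mean correlated at a mean of 0.0239 (-0.0451 to 0.130) between tissues of the same horse, over 10 pairs of libraries and 331 CpGs, and at -0.00815 between different horses, over 30 pairs. Over all 68147 CpGs the means were 0.172 and -0.0573. CpGs of a place share reads and the choice used these levels, so the values are a description.

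The level was also read in libraries whose levels had no part in a choice. The conditions were applied without the libraries of 1 horse, and the CpGs so chosen were then read in that horse. Without horse 1 there were 431 such CpGs, and in horse 1 their median difference was 22.9 points for heart minus lung and 22.4 points for heart minus liver. For horse 2 (400 CpGs) the values were 23.6 and 27.1 points, and for horse 4 (484 CpGs) 21.3 and 25.4 points. For horse 3, with heart and lung alone, 411 CpGs gave 24.1 points. Over all CpGs the same differences had medians of -1.02 to 0 points. Heart was the highest library of the left-out horse at 86.5%, 87.8%, 90.8% and 82.4% of the chosen CpGs in horses 1, 2, 3 and 4, against 27.0%, 27.6%, 45.9% and 28.6% of all CpGs. All CpGs were not matched in level to the chosen ones. Lung and liver averaged above 50% at 78.9% of all CpGs and at 37.5% of the 331. The margin shrank from 25.6 to 26.6 points in the horses used for the choice to 16.8, 18.1, 24.1 and 16.2 points in the horse left out, where it is taken against the higher of 2 single libraries, or against lung alone in horse 3. The direction thus held in every left-out horse at most of the chosen CpGs. The horses are 4, and 246 to 285 of the chosen CpGs were among the 331.

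**Figure D5:**
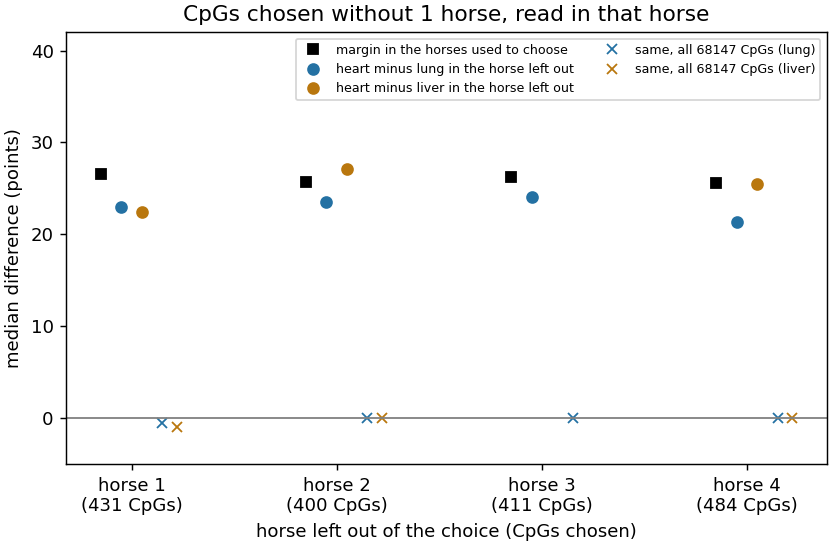
Median differences in methylation level (vertical axis, percentage points) for CpGs chosen without 1 horse (horizontal axis, with the number chosen): squares are the margin in the horses used to choose, circles heart minus lung (blue) and heart minus liver (ochre) in the horse left out, and crosses the same differences over all 68147 CpGs. The circles lie between 21.3 and 27.1 points and the crosses between -1.02 and 0.

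Not all of the 331 CpGs met the limits that the study's methods set for a differentially methylated site, an adjusted p below 0.01 and a difference of 25 points. With logistic regression per CpG and a moderated quasi-likelihood test (Benjamini-Hochberg adjustment over all tested CpGs), 205 were called in heart against lung, where 1.17% of 116927 tested CpGs were called and higher in heart, and 198 in heart against liver, where 3% of 77277 were. Both calls were met by 146 CpGs and neither by 74, and for these counts the shares over all CpGs were not computed. The choice used the same contrasts, so these counts describe the list only. The depth-weighted difference was under 25 points at 87 CpGs against lung and at 99 against liver. At an adjusted p below 0.05, a limit the study also uses, 244 were called against lung (1.68% of all tested CpGs) and 232 against liver (3.73%). With horse as a block (a paired fit), the moderated test called 0% of all tested CpGs and so 0 of the 331 in both comparisons. In edgeR with the same block, 186 of the 331 were called against lung, beside 1.11% of all tested CpGs, and 145 against liver, beside 2.49%.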

How the data were processed

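Each deposited table gives a read count (coverage) per cytosine of a CpG on either strand, beside the percent of those reads showing C and showing T. Per the labels and the study's methods, the authors sequenced single-end RRBS libraries, mapped filtered reads to EquCab3.0 and called methylation from uniquely mapped reads. The submitters' processing notes name FastQC and BSMAP, with versions not given in the sources used here. No position had fewer than 5 reads. Methylated read counts were recovered from the deposited percent and coverage, with at least 99.8% of positions per library giving a whole number to within 0.05 points, and strands were summed. Mitochondrial positions were not used. Liver of horse 3 was not analysed here. Total reads over CpG positions ran from 3255257 to 25109840 per library.

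Tissue means are unweighted over libraries. For calls, read counts were fitted by logistic regression on tissue over all CpGs with 10 or more reads in every library of both tissues. Dispersion was moderated with squeezeVar of limma 3.58.1, without CpGs below 2% or above 98%, and kept at 1 or above. edgeR 4.0.16 and horse as a block were alternatives. The labels give the horse, so equal numbers pair libraries. The fit was tested on simulated data. Runs are 3 or more members each within 200 bp of the next. The 6 runs with the most members were named, ties going to the larger margin, and the 4 members with the largest margin in each level group outside them, at most 1 per 1000 bp. The members and rules were chosen with earlier results of these data known. The only gene table used here is of a different assembly, so genes and sequences are not given. Python 3.11.15, numpy 2.4.6, scipy 1.17.1, pandas 2.3.3, matplotlib 3.10.9 and R 4.3.3 were used.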

Additional observations from a re-analysis of the deposited data

Results flagged for a closer look

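Dixon's test was applied to 48 groups of 4 libraries. These were the heart and the lung libraries at the named runs and CpGs and in both summaries over the members. In 4 groups a library lay far from the others. The usual rate of about 1 in 20 holds for groups not selected on their values. The named runs and CpGs were chosen on these levels, so the flags only describe single libraries. In the run on chromosome 16, lung of horse 2 was at 14.7%, and the next lung library at 29.6%. In the run on chromosome 25, heart of horse 3 was at 68.2%, against 72.0% to 72.8% in the other horses. At the CpG on chromosome 14 at 78303564, lung of horse 1 was at 17.5% and the others at 24% to 25%. At the CpG on chromosome 31 at 15987427, heart of horse 4 was at 91.7%, and the next at 71.4%. No cause was tested.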

How the results depend on the processing

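Depth set how many CpGs could be chosen. With at least 5 reads in every library, 933 of 218903 CpGs met the conditions (median margin 28.0 points), and with at least 20 reads 51 of 13624 did (median margin 27.0 points). A margin of 30 points left 113 (median 34.5), and without the condition on single libraries there were 460 (median 25.4). With 1 library left out the number ran from 356 to 560, and the median margin from 25.9 to 27.1 points. The 560 came from leaving out liver of horse 2, the shallowest library, which raised the table to 113565 CpGs and kept 265 of the 331. CpGs chosen without horse 1, 2, 3 or 4 had margins of 16.8, 18.1, 24.1 and 16.2 points in that horse. With depth-weighted levels 316 were chosen. There were 12 runs at a gap of 100 bp and 13 at 500 bp. Of the 331, calls with at least 20 reads numbered 65 of 102 tested against lung and 37 of 59 against liver. Over all CpGs tested at that depth, 365 of 27220 and 335 of 15611 were called and higher in heart. With 1 library left out, calls among the 331 numbered 140 to 180 against lung and 126 to 183 against liver. The lowest, 126, came without liver of horse 1, the deepest library. Counts over all CpGs are not given for these fits. With the replicate block 0 were called in both, as at all CpGs tested. edgeR without it called 142 and 157 of the 331. Over the 116927 and 77277 CpGs tested, it called 935 and 1943 that were higher in heart. The relative depth of heart against liver turned to -0.0169 with mean depth (exact permutation p = 0.543) and was 0.0174 paired by horse. At the 22 named runs and CpGs, leaving out 1 library moved no margin by over 1.5 times, and the separation of all libraries keeps each margin above 0 by construction.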
